A study of Mus musculus with 9 samples.

Results

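The 9 genes described here were near 0 in fibroblasts of uninjured mouse knees and present in fibroblasts after a cartilage injury, and they were followed through all cells of the series: *Slpi*, *Glipr1*, *Bdkrb1*, *F2rl1*, *Tnfsf15*, *Cela1*, *Tnn*, *Lrrc15* and *Barx2*. All 9 were found by symbol among the 54534 genes listed. They were chosen by their measured level in steady-state and injured fibroblasts of these libraries, so that difference is given here as a description and was not tested. The mice, aged 11 to 12 weeks by the labels, carried *Gdf5-Cre*, a tdTomato (Tom) reporter and *Pdgfrα-H2BGFP* in every group, controls included. The study's figure legends give 11 weeks for steady state and 12 weeks for injury, so age may go with state. *Gdf5-Cre* marks descendants of the embryonic joint interzone, and H2BGFP marks cells with an active *Pdgfrα* promoter. Tom+ (*Gdf5*-lineage) and Tom-GFP+ (other *Pdgfrα*+) cells were sorted from steady-state knees, without surgery per the labels, and from knees 6 days after arthrotomy with a full-thickness scratch of the trochlear groove. There were 2 Tom+ and 1 Tom-GFP+ steady-state libraries, and 4 Tom+ and 2 Tom-GFP+ injured libraries. Cells with immune markers were found in libraries of both lineages, and cells with mural or endothelial markers in Tom+ libraries only. The study's figure legends describe the Tom+ libraries of a state as coming from separate mice and the Tom-GFP+ ones as coming from mice matched to them, but the labels do not say which libraries share a mouse. The p-values therefore measure the spread between libraries, without that matching unless a replicate block is named.

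Tissue injury opens a protease cascade outside cells, in which coagulation and kallikrein enzymes cut matrix, receptors and kinin precursors, and stromal cells answer with inhibitors, receptors and new matrix. *Slpi* encodes secretory leukocyte protease inhibitor, which blocks neutrophil elastase, and *Cela1* encodes a secreted chymotrypsin-like elastase. *F2rl1* encodes the protease-activated receptor PAR2, switched on by trypsin-like enzymes, and *Bdkrb1* encodes the bradykinin B1 receptor, known for being induced in injured tissue. *Tnfsf15* encodes the cytokine TL1A of the tumour necrosis factor superfamily, and *Glipr1* a protein of the CAP family of secreted cysteine-rich proteins. *Tnn* encodes tenascin-W, a matrix glycoprotein of bone, periosteum and tumour stroma, *Lrrc15* a leucine-rich repeat membrane protein known from activated, TGF-β-exposed fibroblasts, and *Barx2* a homeobox transcription factor.

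The 9 genes are protein-coding and lie on 9 different chromosomes of GRCm38, the build given by the submitters, with positions from GENCODE vM21. *Slpi* spans chromosome 2, 164354070 to 164389095, with 4 exons in its principal transcript, and *Cela1* chromosome 15, 100674421 to 100687921, with 8. *Tnn* spans chromosome 1, 160085029 to 160153580, with 22 exons, *Lrrc15* chromosome 16, 30269302 to 30283256, with 2, and *Barx2* chromosome 9, 31846044 to 31913462, with 4. *F2rl1* spans chromosome 13, 95511732 to 95525227, *Bdkrb1* chromosome 12, 105603085 to 105605428, *Glipr1* chromosome 10, 111985448 to 112002631, and *Tnfsf15* chromosome 4, 63727084 to 63745113. *Bdkrb1* is on the forward strand and the other 8 are on the reverse strand. *Barx2* overlaps *Gm31497* and *Glipr1* overlaps *Krr1* on the opposite strand, and *Slpi* overlaps *Mir7678* on its own strand.

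RefSeq promoters on GRCm38.p6 were at hand for 5 of the 9 genes (*Slpi*, *Tnfsf15*, *Cela1*, *Tnn* and *Lrrc15*). The 250 bases before the start were read for 4 motifs on both strands: AP-1 (TGANTCA), TEAD (GGAATG), RUNX (TGTGGT) and the TATA box (TATAAA), with no overlap between the matches found. Those of *Lrrc15*, *Tnn* and *Cela1* are shown, since the first 2 were the members most often found in the same fibroblasts and *Cela1*, the elastase, is the member whose window holds a TATA box. The capitals mark the matches. All 3 windows are on the reverse strand, at chr16:30283255-30283504 for *Lrrc15*, chr1:160153576-160153825 for *Tnn* and chr15:100687921-100688170 for *Cela1*.
Lrrc15: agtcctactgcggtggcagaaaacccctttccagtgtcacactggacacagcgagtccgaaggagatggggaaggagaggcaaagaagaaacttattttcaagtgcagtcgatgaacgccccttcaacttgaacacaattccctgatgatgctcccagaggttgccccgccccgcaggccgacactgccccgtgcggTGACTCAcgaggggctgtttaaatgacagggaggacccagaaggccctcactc
Tnn: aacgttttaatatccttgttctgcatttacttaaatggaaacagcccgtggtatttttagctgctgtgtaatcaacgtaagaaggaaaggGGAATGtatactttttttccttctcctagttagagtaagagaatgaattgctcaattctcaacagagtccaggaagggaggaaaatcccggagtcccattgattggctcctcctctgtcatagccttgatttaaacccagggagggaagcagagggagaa
Cela1: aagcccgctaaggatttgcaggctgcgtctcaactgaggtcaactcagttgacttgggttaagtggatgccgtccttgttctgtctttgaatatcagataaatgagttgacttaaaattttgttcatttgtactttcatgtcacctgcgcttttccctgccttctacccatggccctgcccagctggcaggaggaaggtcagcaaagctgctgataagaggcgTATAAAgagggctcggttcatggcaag
The *Lrrc15* window holds an AP-1 match that begins 53 bases before the start, the *Tnn* window a TEAD match at 160 bases, and the *Cela1* window a TATA box at 27 bases. The *Tnfsf15* window holds a TEAD match at 140 bases and the *Slpi* window none of the motifs. Over 32851 promoters of the same length, 7.81% held the AP-1 letters, 14.7% the TEAD letters, 16.8% the RUNX letters and 13.6% the TATA letters, so such matches are common.

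The libraries held 331 to 544 kept cells in steady state and 277 to 826 after injury, with a median of 8050.5 to 8647 and 12223 to 18567 UMIs per cell. A UMI is 1 counted RNA molecule, and CPM is a gene's UMIs per 1000000 UMIs of the same cells. Tom+ injured replicate 1 was the deepest, and at most 2 cell barcodes were shared by any of the 36 pairs of libraries. The steady-state libraries and Tom+ injured replicate 1 came with a gene list in an older format, the other injured libraries in a newer one. State and format thus nearly coincide, and within the older format the states can be compared only through Tom+ injured replicate 1. The effect of the format on the members was not tested. Cells were put into classes by marker genes that include none of the 9 members. Markers kept out of the gates were read in 8 classes and were higher than in the reference class for 4 of 4 in each of them, except for 3 of 4 in the 6 steady-state immune cells. Adam12+ cells and *Prg4*+ *Thy1*- cells had no such check. Fibroblasts here are *Thy1*+ or *Cd34*+ sublining cells (898 in steady state, 1076 after injury) plus Adam12+ fibroblasts (4 and 586), which have UMIs of *Adam12* and of at least 2 of *Mdk*, *Tnc* and *Cthrc1*.

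In fibroblasts, the levels in the injured libraries lay above all 3 steady-state libraries for 8 of the 9 genes and overlapped for *F2rl1* (14.1% of the 12370 genes tested had no overlap in this direction). The choice of the genes fixed this. The matrix gene *Tnn* was at 4.46 and 1.12 CPM in the Tom+ and 2.19 CPM in the Tom-GFP+ steady-state libraries, and at 300.2, 211, 88.9 and 80.9 CPM in Tom+ and 94.8 and 57.4 CPM in Tom-GFP+ injured fibroblasts (replicates in order). *Lrrc15* was at 9.42 and 3.75 CPM in Tom+ and 0.729 CPM in Tom-GFP+ steady state, and at 133, 119, 128 and 114 CPM in Tom+ and 134 and 67.7 CPM in Tom-GFP+ after injury. *Lrrc15* was the most even of the 9 across injured Tom+ libraries and the least near 0 before injury, with UMIs in 17 of 902 steady-state fibroblasts. *Barx2* was at 1.49 and 0.375 CPM in Tom+ and 0 in Tom-GFP+ steady state, and at 84.5, 70.2, 56.5 and 37.2 CPM in Tom+ and 109 and 56.5 CPM in Tom-GFP+ injured cells.

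Of the protease inhibitor and the protease, *Slpi* had 1 UMI in 902 steady-state fibroblasts, in the Tom-GFP+ library (0.364 CPM). After injury it was at 39.97, 24.9, 16.4 and 10.04 CPM in Tom+ and 74.2 and 19.4 CPM in Tom-GFP+ fibroblasts, and the replicates of a lineage differed widely. *Cela1* likewise had 1 steady-state UMI (0.364 CPM, Tom-GFP+), and was at 5.30, 7.64, 4.74 and 6.49 CPM in Tom+ and 12.5 and 10.4 CPM in Tom-GFP+ injured fibroblasts. Both Tom-GFP+ values of *Cela1* lay above all 4 Tom+ values, and the share of all genes in such an order was not counted.

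The receptors of kinins and proteases followed. *Bdkrb1* was at 0.496 and 0 CPM in Tom+ and 0.364 CPM in Tom-GFP+ steady state, and at 16.6, 11.8, 5.47 and 8.27 CPM in Tom+ and 16.1 and 7.33 CPM in Tom-GFP+ injured fibroblasts. *F2rl1* had no UMI in the 557 Tom+ steady-state fibroblasts, but 13 UMIs in 7 cells of the Tom-GFP+ library (4.74 CPM). It was at 17.9, 15.5, 5.47 and 4.13 CPM in Tom+ and 16.6 and 7.33 CPM in Tom-GFP+ injured fibroblasts, so Tom+ injured replicate 4 was below the Tom-GFP+ steady state. *F2rl1* was therefore at 0 before injury in Tom+ fibroblasts, but not in Tom-GFP+ fibroblasts.

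*Tnfsf15* was at 0 in both Tom+ and at 0.729 CPM in the Tom-GFP+ library before injury, and at 2.29, 17.2, 9.84 and 7.08 CPM in Tom+ and 5.30 and 6.47 CPM in Tom-GFP+ injured fibroblasts. *Glipr1* was at 0.496 and 0 CPM in Tom+ and 1.82 CPM in Tom-GFP+ steady state, and at 51.1, 17.2, 30.6 and 20.7 CPM in Tom+ and 49.0 and 14.2 CPM in Tom-GFP+ injured fibroblasts. Tom+ injured replicate 1, the highest Tom+ library for 7 of the 9 genes, was the lowest for *Tnfsf15*.

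**Figure D1:**
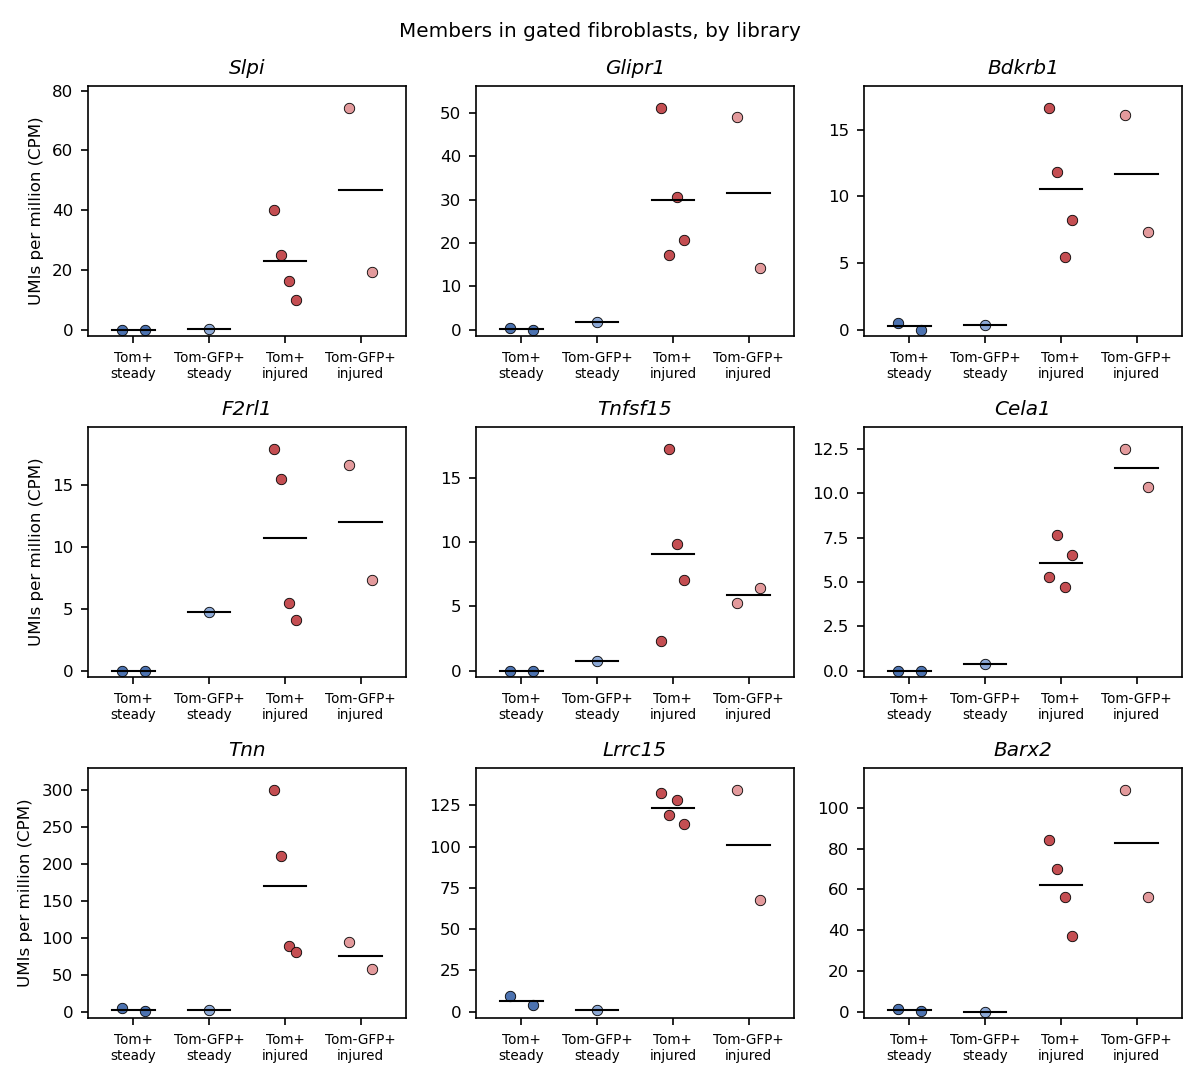
Level of each of the 9 genes in gated fibroblasts, in CPM (linear axis, a scale of its own per gene), with 1 point for each of the 9 libraries and a line at the group mean. Injured libraries lie above the steady-state ones for each gene except *F2rl1*, whose Tom+ injured replicate 4 (4.13 CPM) lies below the Tom-GFP+ steady state (4.74 CPM).

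The share of Adam12+ cells among fibroblasts moved with injury, from 0.290% to 0.844% in the steady-state libraries to 21.8% to 63.8% in the injured ones, with the highest share in Tom+ injured replicate 1. The genes were also present in injured sublining cells outside that class. In those cells *Tnn* was at 0.998, 1.13 and 0.734 CPM in the steady-state libraries and at 146, 120.1, 54.1, 56.7, 50.4 and 23.9 CPM in the 4 Tom+ and 2 Tom-GFP+ injured libraries. *Lrrc15* was at 9.48, 3.76 and 0.734 CPM before and at 95.4, 74.3, 94.6, 99.98, 71.5 and 39.6 CPM after injury, and *Barx2* at 1.497, 0 and 0 CPM before and at 64.8, 41.9, 41.6, 24.2, 53.5 and 38.2 CPM after. The few steady-state UMIs lay partly in the 4 steady-state Adam12+ cells, which held 11 of 18 for *Tnn* and 5 of 6 for *Glipr1*. No *Slpi* UMI was found in 898 steady-state sublining cells, which allows a share of up to 0.334%. Intervals and limits of this kind cover counting error only, and they limit the cells with a UMI at this depth, not the cells that express the gene.

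The sums of some other marker lists were higher after injury inside the fibroblast gate, though not all of their genes were, and their part in the members' levels was not tested. The summed osteoblast-lineage check list (*Runx2*, *Bglap*, *Spp1* and *Col1a1*) was at 1805 to 2755 CPM in steady state and 7230 to 11083 CPM after injury, and the mural list (*Acta2*, *Tagln*, *Pdgfrb* and *Abcc9*) at 73.4 to 111 and 190 to 834 CPM, with no marker of either list at 0 over a whole state. The first sum was mostly *Col1a1*, a collagen gene that fibroblasts also express (1675 to 1834 CPM before and 6893 to 10844 CPM after), whereas the osteocalcin gene *Bglap* was at 0.364 to 59.5 and 1.70 to 19.0 CPM. In the mural list *Acta2* and *Tagln* were higher, while *Pdgfrb* was at 57.0 to 67.0 and 50.6 to 98.6 CPM and *Abcc9* at 2.97 to 28.8 and 0 to 20.2 CPM. The immune list (*Aif1*, *C1qa*, *Cd68* and *Csf1r*) was at 4.87 to 6.44 and 3.15 to 8.13 CPM, with *C1qa* at 0 in steady state.

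Detection in single cells followed the depth as well as the level. Fibroblasts with a UMI of any member made up 3.13% to 6.75% of the steady-state and 56.2% to 91.1% of the injured libraries. With every cell thinned to 5000 UMIs these shares were 2.58% to 4.88% and 43.8% to 79.3%. UMIs of 4 or more members were found in no steady-state fibroblast, and in 42.9%, 18.0%, 13.4% and 4.70% of Tom+ and 22.7% and 8.88% of Tom-GFP+ injured fibroblasts. The thinned values were 8.98%, 2.56%, 0% and 0.712% in Tom+ and 6.93% and 0.625% in the Tom-GFP+ libraries, so far fewer cells showed 4 or more members at an even depth.

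The classes after injury carried different members. *Slpi* led in lining fibroblast-like synoviocytes (FLS, *Prg4*+ with at least 3 further lining markers), *Tnn* in osteoblast-lineage cells and tenocyte-lineage cells, and *Lrrc15* and *Barx2* in Adam12+ fibroblasts. In immune cells mainly *Slpi*, *Glipr1* and *Cela1* were found. The share of a gene's UMIs per class depends on how many cells each class has.

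**Figure D2:**
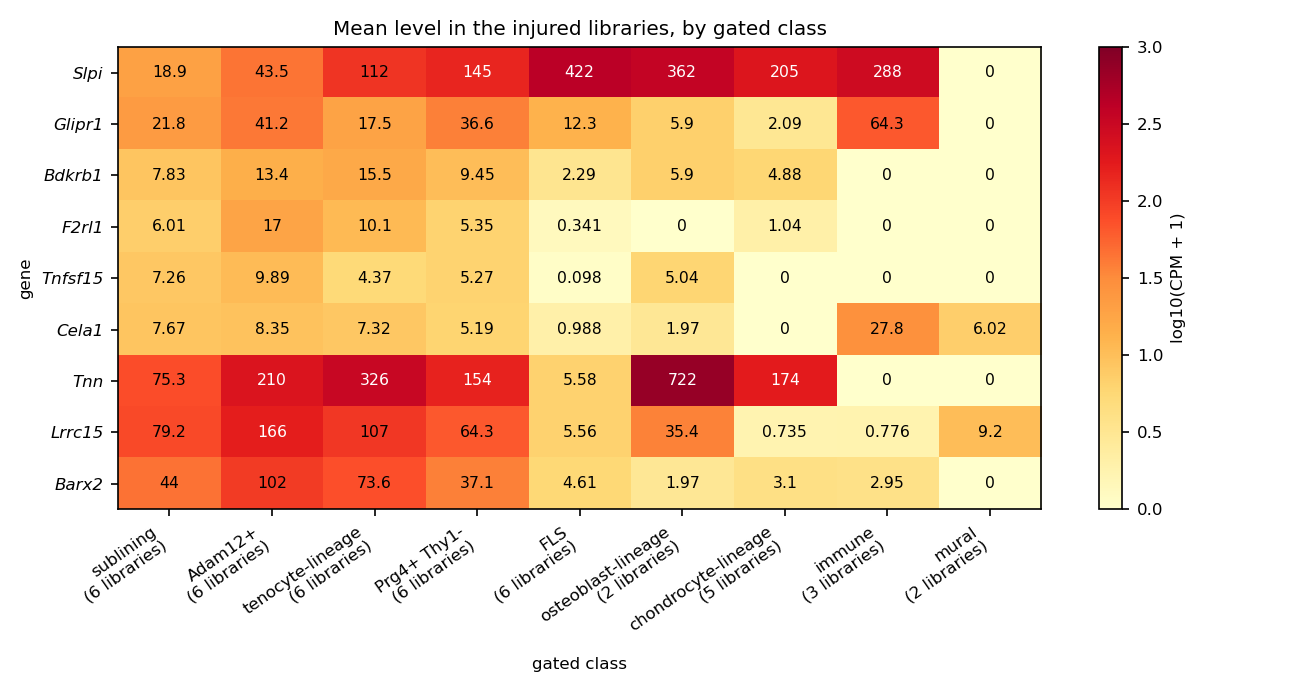
Mean CPM of each gene (rows) in each gated class (columns) over the injured libraries with at least 10 cells of that class, printed in the cells and coloured on a log10(CPM + 1) scale. *Slpi* reaches 422 CPM in FLS, *Tnn* 722 CPM in osteoblast-lineage cells, and 7 genes are at 0 in mural cells.

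*Slpi* was found mostly in FLS. They held 65.3% of all *Slpi* UMIs of the injured libraries, with 206, 691, 754 and 275 CPM in Tom+ and 139 and 468 CPM in the Tom-GFP+ libraries. In steady state the 2 Tom+ libraries with at least 10 FLS were at 0 and 3.76 CPM, with 3 UMIs in all 59 FLS. The injured and steady-state levels did not overlap, and this was not tested, since FLS are fibroblasts that the choice of genes may have read. *Slpi* UMIs were found in 36.8% of 701 injured FLS (exact 95% interval 33.2% to 40.5%, median depth 17561 UMIs) and in 26.4% of them at 5000 UMIs. In mural cells, which serve as the background, 0 of 76 cells had one, at a median of 9025.5 UMIs (a share of up to 3.95%). The level was uneven within the class. Of the 258 FLS with *Slpi*, the 26 richest cells held 64.8% of the UMIs, and 1 cell had 550.

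In the comparison of classes within the injured libraries, UMIs were summed per class and library and tested for 11773 genes with library as a block (quasi-likelihood test of edgeR, p-values adjusted over all genes by Benjamini-Hochberg). All 9 members passed the filter on low counts. Because they had been picked for being present in injured fibroblasts, a direction that favours sublining or Adam12+ cells is not independent of the choice. *Slpi* was higher in FLS than in sublining cells by 4.49 on the log2 scale (SE 0.57, edgeR adjusted p = 1.69e-06), in 6 of 6 libraries, while 17.6% of genes were called higher. The choice of genes may have read FLS too, so this direction may not be independent of it, and the *Slpi* value is also a description. The other 8 genes were called lower in FLS, beside 19.7% of all genes. Sublining cells are among the fibroblasts whose levels chose the genes, so nothing is read from these calls and the values are a description. *Tnfsf15* had 2 UMIs in 701 FLS, a ratio to sublining of 0.0219 (counting interval 0.00261 to 0.0812), and *F2rl1* had 5 UMIs. The log2 difference was -3.96 (SE 0.28) for *Tnn*, -3.92 (SE 0.30) for *Lrrc15* and -3.10 (SE 0.23) for *Barx2*. It was -2.63 (SE 0.38) for *Cela1* and -1.68 (SE 0.36) for *Bdkrb1*, with the FLS value below the sublining value in 6 of 6 libraries for these 5 genes. *Glipr1* was at -1.16 (SE 0.35), below in 5 of 6 libraries.

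*Prg4*+ *Thy1*- cells that did not meet the FLS gate carried *Slpi* beside members with low values in FLS. In the 6 injured libraries *Tnn* ran from 49.9 to 285 CPM there (mean 154), *Lrrc15* from 44.5 to 104 CPM (mean 64.3), *Barx2* from 16.9 to 71.9 CPM (mean 37.1) and *Glipr1* from 19.0 to 50.7 CPM (mean 36.6). *Slpi* ran from 20.3 to 435 CPM, with the highest value in Tom+ injured replicate 2. These levels were not tested against FLS.

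Adam12+ fibroblasts carried more of 5 genes than sublining cells of the same libraries, in a direction that the choice of genes favours. The share of Adam12+ cells among the fibroblasts that chose the genes rose with injury. Nothing is therefore read from the calls below, and the values are a description. *Tnn* was at 360, 329, 171 and 151 CPM in Tom+ and 136 and 115 CPM in Tom-GFP+ Adam12+ cells, above the sublining value of every library (log2 difference 1.51, SE 0.18, edgeR adjusted p = 2.43e-05). *Barx2* was at 92.2, 107, 91.4 and 75.0 CPM in Tom+ and 161 and 88.0 CPM in the Tom-GFP+ libraries (1.21, SE 0.15, edgeR adjusted p = 4.23e-05), and *Lrrc15* at 147, 178, 207 and 153 CPM in Tom+ and 193 and 116 CPM in the Tom-GFP+ libraries (1.05, SE 0.20, edgeR adjusted p = 0.00179). *F2rl1* was at 20.7, 29.4, 11.0 and 8.07 CPM in Tom+ and 24.9 and 8.22 CPM in the Tom-GFP+ libraries (1.51, SE 0.27, edgeR adjusted p = 0.00116). The 4 genes were higher in 6 of 6 libraries, as was *Glipr1*, at 55.4, 22.6, 51.2 and 26.5 CPM in Tom+ and 69.3 and 22.3 CPM in the Tom-GFP+ libraries (0.91, SE 0.29, edgeR adjusted p = 0.0424). Of all genes 4.86% were called higher in Adam12+ cells, and the median was 1.05 for the 9 genes and -0.01 for all genes.

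The other 4 genes were not called between Adam12+ and sublining cells, although some were under other settings. The log2 difference was 1.18 for *Slpi* (approximate 95% interval -0.0037 to 2.36) and 0.79 for *Bdkrb1* (0.26 to 1.33, edgeR adjusted p = 0.0669). It was 0.24 for *Tnfsf15* (-0.36 to 0.85) and 0.01 for *Cela1* (-0.55 to 0.57). *Tnfsf15* and *Cela1* thus had similar means in both classes, with 9.89 and 8.35 CPM in Adam12+ and 7.26 and 7.67 CPM in sublining cells, although a difference within those intervals could have been missed. Adam12+ cells were deeper than sublining cells, with a median of 18622 against 11062 UMIs, and the gate itself asks for detected markers. At 5000 UMIs a cell, UMIs were found in Adam12+ and sublining cells in 52.1% and 15.8% for *Tnn*, 45.7% and 19.8% for *Lrrc15*, 28.7% and 13.0% for *Barx2*, 17.2% and 7.03% for *Glipr1*, and 7.73% and 1.94% for *F2rl1*. Without thinning these shares were 73.7% and 24.3%, 72.2% and 31.0%, 51.7% and 19.6%, 41.1% and 11.5%, and 21.5% and 4.00%.

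These calls depended on the gate. With 1 marker more asked of every gate but the sublining and *Prg4*+ *Thy1*- gates, *Tnn* alone of the 5 was called. The log2 differences were then 0.57 for *Lrrc15*, 0.32 for *F2rl1*, 0.25 for *Glipr1* and -0.06 for *Barx2*. Cells that missed a stricter gate could fall into the sublining class, so the reference cells could differ as well. *Glipr1* was also lost without Tom+ injured replicate 2, 3 or 4 or Tom-GFP+ injured replicate 1 (adjusted p from 0.0553 to 0.202) and with DESeq2 (0.211). *Bdkrb1* was called without Tom+ injured replicate 4 (1.01, edgeR adjusted p = 0.0226) and without a filter on low counts (0.80, edgeR adjusted p = 0.00910), and *Slpi* was called without the filter (1.18, edgeR adjusted p = 9.37e-13).

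**Figure D3:**
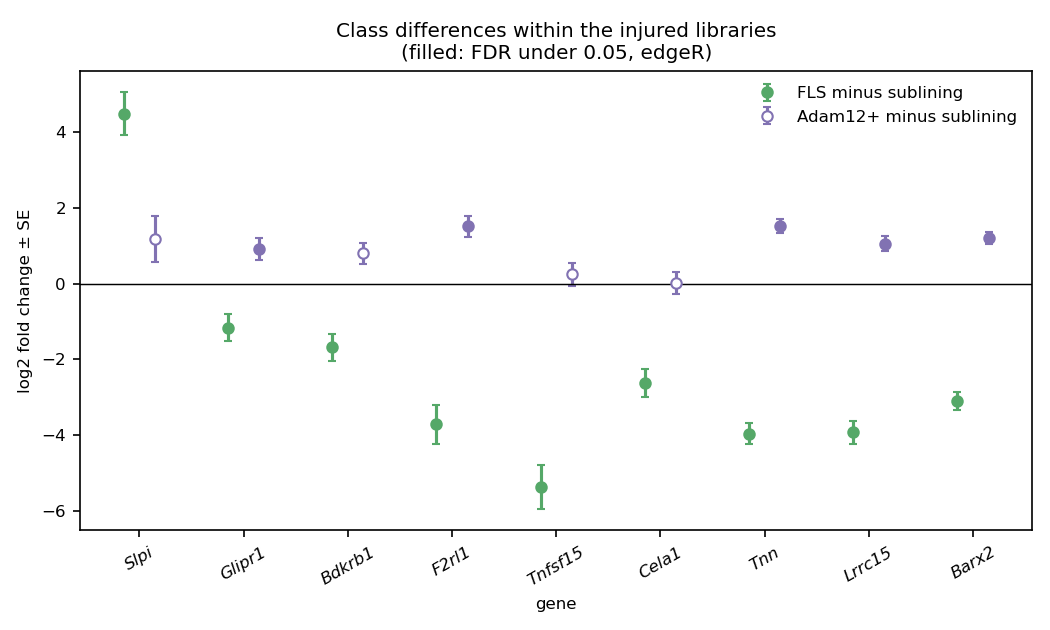
Log2 fold change ± SE of each gene in FLS (green) and Adam12+ fibroblasts (purple) against sublining fibroblasts of the same 6 injured libraries, with filled points at a false discovery rate under 0.05 by edgeR. *Slpi* is the 1 gene above 0 in FLS (4.49). *Tnn*, *F2rl1*, *Barx2*, *Lrrc15* and *Glipr1* are filled and above 0 in Adam12+ cells. The choice of genes favours the direction of these 5 points and of the filled FLS points below 0. It may also have favoured that of *Slpi* in FLS.

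*Tnn* was not a gene of injury alone once other classes were read. In steady-state osteoblast-lineage cells it was at 95.5 and 132 CPM in the Tom+ libraries (17 and 42 cells) and at 160 CPM in 8 cells of the Tom-GFP+ library, with UMIs in 35.8% of 67 cells, against 0.998% of 902 fibroblasts. After injury the Tom+ libraries with at least 10 such cells were at 731 and 712 CPM (15 and 22 cells). The other 14 osteoblast-lineage cells were spread over 4 libraries, at 172 and 377 CPM in Tom+ and 0 in both Tom-GFP+ libraries. Within Tom+ osteoblast-lineage cells *Tnn* rose with injury by 2.71 on the log2 scale (SE 0.29, edgeR adjusted p = 0.00854, 2 against 2 libraries), where 1.12% of 3116 genes were called higher. This class was outside the choice of genes, although the libraries were the same. The other 8 genes did not pass the filter on low counts in this comparison and were not tested. The call held in 12 of 14 alternatives and was lost with 1 marker more in the gate (edgeR adjusted p = 0.0842) and with the replicate number as a block (edgeR adjusted p = 0.0640).

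Against sublining cells of the same injured libraries, *Tnn* was higher in osteoblast-lineage cells by 2.46 (SE 0.28, edgeR adjusted p = 4.49e-06), which was not called with 1 marker more in the gate (1.13, adjusted p = 0.352). *Slpi* was higher by 3.96 (SE 0.94, edgeR adjusted p = 0.0117), beside 2.81% of genes called higher, but 114 of its 120 UMIs came from 1 cell of Tom+ injured replicate 1. Without that library the difference was 0.11 (SE 2.06). *Barx2* had 1 UMI in 37 osteoblast-lineage cells and a ratio of 0.0457 (counting interval 0.00115 to 0.257). It was the member called lower, beside 2.74% of genes, in a direction that the choice favours, and nothing is read from that call. The scaling shifted the whole comparison, from 331 genes higher and 323 lower to 387 and 247 with DESeq2 size factors in edgeR and 446 and 247 with DESeq2.

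Tenocyte-lineage cells also carried several members after injury. *Tnn* was at 458, 408, 53.1 and 605 CPM in Tom+ and 244 and 186 CPM in the Tom-GFP+ libraries, *Lrrc15* at 127, 175, 19.3 and 78.5 CPM and at 128 and 115 CPM, and *Barx2* at 70.7, 85.2, 14.5 and 18.5 CPM and at 94.9 and 157 CPM. For all 3 genes the lowest of the 6 libraries was Tom+ injured replicate 3, which had 17 such cells. In the 61 steady-state tenocyte-lineage cells *Tnn* had 6 UMIs in 1 cell, *Barx2* had 1 UMI and *Lrrc15* had 0. *Slpi* ran from 0 to 267 CPM in injured tenocyte-lineage cells. In chondrocyte-lineage cells *Slpi* was at 41.9, 52.2, 8.52 and 29.4 CPM in Tom+ injured libraries and 894 and 1574 CPM in Tom-GFP+ injured libraries (14 and 5 cells), and 225 CPM in 12 steady-state Tom-GFP+ cells. The injured libraries of the 2 lineages did not overlap, but this was noticed in the values, rests on few cells and was not tested. The share of all genes without overlap was not counted either. In steady state the paper described Tom+ cells of this class as superficial zone chondrocytes. It described the Tom- ones as mature or hypertrophic, probably of growth plate origin. The lineages may thus hold different cell types within this class.

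Few UMIs of the 9 genes were found in mural cells. In 63 mural cells of Tom+ injured replicates 1 and 2, *Slpi*, *Glipr1*, *Bdkrb1*, *F2rl1*, *Tnfsf15*, *Tnn* and *Barx2* had 0 UMIs, and *Cela1* had 5 and *Lrrc15* had 7. With the floor of 3 UMIs over the class, sublining cells were at least 33.1-fold higher for *Tnn*, 13.1-fold for *Barx2*, 6.42-fold for *Glipr1* and 6.31-fold for *Slpi*, and at least 2.53-fold for *Bdkrb1*, 2.12-fold for *Tnfsf15* and 1.89-fold for *F2rl1*. The ratio for *Lrrc15* was 0.111 (counting interval 0.0443 to 0.231). Since the genes were chosen for their presence in injured fibroblasts and passed the filter through them, a lower value in mural cells was set by the choice. The edgeR calls (7 genes lower, beside 9.39% of all genes) are therefore not read.

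In immune cells *Glipr1* was at 58.2, 71.7 and 63.0 CPM in the 3 injured libraries with at least 10 such cells, closer together than its fibroblast levels there (30.6, 20.7 and 14.2 CPM). *Cela1* was at 34.9, 35.9 and 12.6 CPM there (15, 11 and 1 UMIs), and its fibroblast levels in the same libraries were 4.74, 6.49 and 10.4 CPM. The third immune value rests on 1 UMI in 11 cells and does not tell the 2 classes apart. *Slpi* was at 79.2, 65.2 and 718 CPM, and 4 of the 6 steady-state immune cells carried it (30 UMIs). *Bdkrb1*, *F2rl1*, *Tnfsf15* and *Tnn* had 0 UMIs in 104 injured immune cells, which allows up to 2.88% of such cells to have a UMI at their depth and does not limit the cells that express these genes. The immune marker sums in the fibroblast gate, given above, overlapped between the states. A further 31 UMIs of *Cela1* lay in 60 cells of Tom+ injured replicate 4 that met no gate (54.9 CPM), the highest level of this gene in any class with at least 10 cells.

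Between the lineages, none of the 9 genes was called in injured Tom+ against Tom-GFP+ fibroblasts by edgeR, where 0.0162% of 12370 genes were, namely the reporter tdTom and *Gngt2*. The fit was the quasi-likelihood test of edgeR on fibroblast UMIs summed per library, and it had 667 genes at an unadjusted p under 0.05, while DESeq2 called 54 genes (16 higher and 38 lower in Tom+). *Tnn* was 1.18 higher in Tom+ on the log2 scale (approximate 95% interval 0.10 to 2.25, edgeR adjusted p = 0.951). As computed, that interval leaves out 0, but it is too narrow for so few libraries, and a wider one could include 0. The Tom+ and Tom-GFP+ values of *Tnn* overlapped. *Cela1* was lower in Tom+ with a difference of -0.89 (-1.496 to -0.29, edgeR adjusted p = 0.700), the member with the smallest adjusted p. Its groups did not overlap, but the share of all genes without overlap between the lineages was not counted. Nothing is therefore read from that separation. *Slpi* differed by -1.01 (-2.11 to 0.09). The intervals of the other 6 genes crossed 0 and ran from -1.28 (*F2rl1*) to 2.04 (*Tnfsf15*), and 5 of them reached past 1 in size, so a difference of 2-fold could have been missed. With the replicate number as a block, which would pair the injured libraries if equal numbers marked matched mice, 10 genes were called and none was a member. *Tnn* then differed by 1.78 (edgeR adjusted p = 0.0669), *Cela1* by -0.86 (0.544) and *Slpi* by -0.34 (0.866), and *Glipr1*, *Bdkrb1* and *F2rl1* changed sign, to 0.16, 0.32 and 0.51 (0.929, 0.885 and 0.761). Without a filter on low counts, *Slpi* (adjusted p = 0.00408) and *Tnn* (0.000190) were called. The median of the 9 was -0.13 against 0.02 for all genes.

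**Figure D4:**
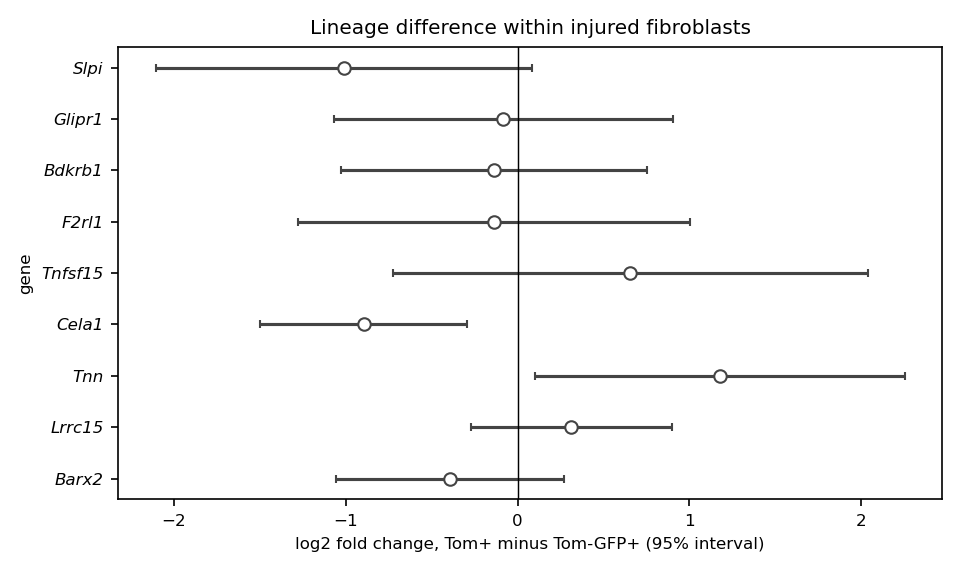
Log2 fold change of each gene between Tom+ (4 libraries) and Tom-GFP+ (2 libraries) injured fibroblasts. The approximate 95% intervals are too narrow for so few libraries and are not adjusted for the number of genes. As drawn, those of *Cela1* (-1.496 to -0.29) and *Tnn* (0.10 to 2.25) leave out 0. For *Tnn* a wider interval suited to few libraries could include 0. No gene passed the adjusted threshold.

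Most pairs of members, though not all, were found in the same fibroblasts more often than their separate rates would give. For each of the 36 pairs, cells with both genes were counted in 1662 injured fibroblasts, and the count expected if detection were independent was taken within each library and each depth tertile. The odds ratio, which is 1 for independence, was above 1 for 28 pairs, with a median of 1.44. The count was above expectation in all 6 libraries for 12 pairs, and for 10 within the classes. Pairs of other genes were not read, so the share to set these counts against is not known. It was above 1 for 27 pairs within sublining and Adam12+ cells taken separately (median 1.42) and for 23 pairs in 1563 cells thinned to 5000 UMIs (median 1.34). *Tnn* and *Lrrc15* were found together in 498 cells against 423 expected (odds ratio 3.67, and 2.24 thinned), above expectation in 6 of 6 libraries. *F2rl1* and *Lrrc15* had the highest odds ratio, 4.46 (2.08 thinned), with 148 cells against 120.2. *F2rl1* and *Barx2* were at 3.22 (3.24 thinned), and *Glipr1* and *Tnn* at 3.23 (1.80 thinned). Since these values come from cells of 6 libraries and share depth, no p is given.

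The pairs with *Slpi* were mixed, with an odds ratio above 1 for 5 of 8 members. It was 2.86 with *Tnn* (2.22 thinned), 2.53 with *Bdkrb1* (1.48 thinned), 2.00 with *Tnfsf15* (2.36 thinned), 1.38 with *Glipr1* (1.94 thinned) and 1.02 with *Cela1*. It was below 1 with *F2rl1* (21 cells against 27.5, odds ratio 0.63), *Barx2* (58 against 65.7, 0.75) and *Lrrc15* (91 against 94.7, 0.85), and the thinned odds ratios were 0.57, 0.59 and 0.58. For *Slpi* and *Lrrc15*, 3 of 6 libraries lay above expectation without thinning. *Cela1* was close to 1 with most members, from 0.88 with *Tnn* and *Glipr1* to 1.40 with *Barx2*, but its thinned odds ratios ran from 0.24 with *Slpi* to 2.31 with *Tnfsf15* on few cells. *Tnfsf15* and *Lrrc15* were found together in 44 cells against 51.4 (0.68, and 0.40 thinned), although *Tnfsf15* and *Barx2* were at 2.00 (1.098 thinned). In FLS, *Slpi* was below expectation in all 6 libraries with *Lrrc15* (5 cells against 13.7), *Glipr1* (18 against 27.6) and *Barx2* (9 against 15.6).

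**Figure D5:**
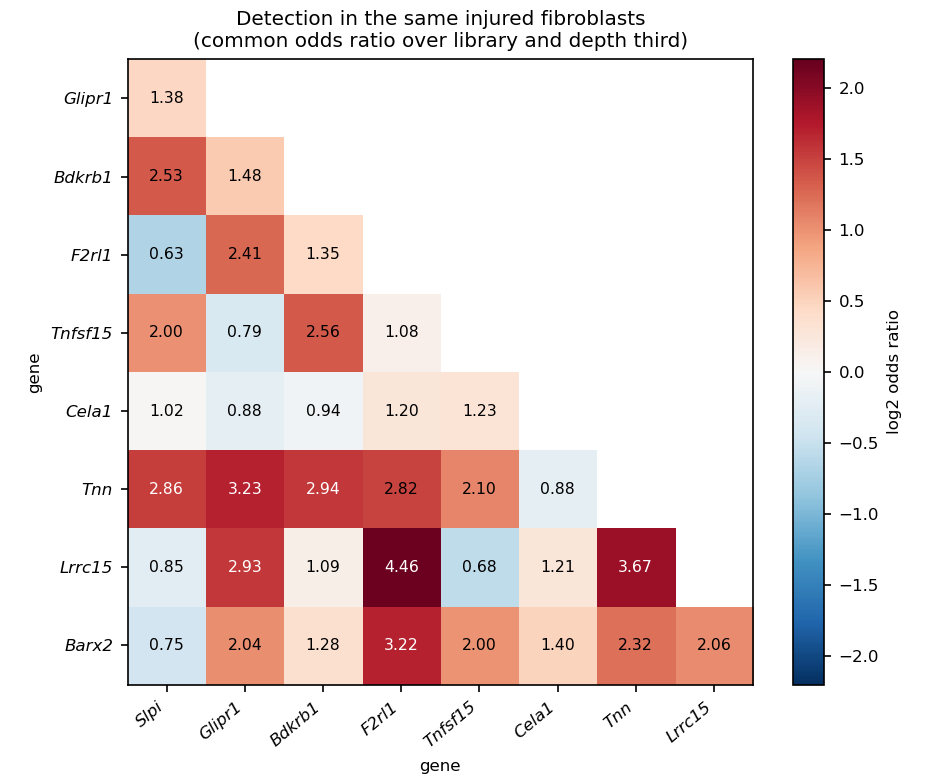
Common odds ratio over library and depth tertile for detection of each pair of the 9 genes in the same injured fibroblasts, printed and coloured on a log2 scale (red above 1, blue below 1). *F2rl1* and *Lrrc15* (4.46) and *Tnn* and *Lrrc15* (3.67) are highest, and *Slpi* and *F2rl1* (0.63) lowest.

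Counted per cell, 517 of the 1662 injured fibroblasts had none of the 9 genes, against 377 expected under independence, and 334 had 4 or more against 282. In thinned cells the counts were 646 against 550.2 and 61 against 36.5. Both ends of the distribution held more cells than independence gives, also when the classes were kept apart (407 and 291 expected without thinning).

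The genes with the most similar levels across classes and libraries after injury were named from Pearson's r of log2(CPM + 1) over 42 sums that share libraries and depth, among 10089 genes. *Lrrc15* and *Barx2* shared *Crabp2* (r = 0.88 and 0.84) and *AW551984* (0.86 and 0.87), with *Wnt9a* next for *Lrrc15* and *Il33* for *Barx2*, and had r = 0.85 with each other. For *Tnn* they were *Hrasls* (0.89), *Dclk1* and *Col1a1* (both 0.87), for *F2rl1* *Gjb5* (0.87), *Masp1* and *Vgll3*, and for *Cela1* *Casp1* (0.82), *Nek6* and *Mgst1*. For *Tnfsf15* they were *Hmcn1* (0.80), *Tnfsf8* and *Stox2*, for *Bdkrb1* *Ptn* (0.78), *Zfp185* and *Ptx3*, and for *Glipr1* *Sh3bgrl3* (0.77), *Hgf* and *Rab32*. *Slpi* had the lowest leading value, 0.65 with *Ctsh*, followed by *Elovl7* and *Mrgbp*, and its r with the other 8 members ran from -0.28 to 0.12.

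The other genes of the members' families and pathways were tested in Tom+ fibroblasts between steady state (2 libraries) and injury (4 libraries). The injured libraries except Tom+ injured replicate 1 had the newer gene list format and the steady-state ones the older, so state and format were nearly confounded. Of 112 listed genes, 105 were in the gene list and 67 passed the filter on low counts, of which 18 rose and 8 fell, where 5.98% of all genes rose and 7.4% fell. Without either Tom+ steady-state library 7 of them were called. Of the 18 rises, 7 were in the list of matrix genes induced by TGF-β. The lists were chosen with earlier results known, so the total is a description. In the kinin list 1 of 5 rose, the kininogen gene *Kng2* (2.18 to 20.01 CPM on average). In the list of protease-activated receptors and coagulation genes 2 of 9 rose and 2 fell. The fall was large for thrombomodulin, *Thbd*, from 226 and 292 CPM to 14.6 to 35.3 CPM (log2 -3.40, SE 0.31, edgeR adjusted p = 0.00125), and also seen for *Procr*, the protein C receptor (-1.78), while *Tfpi2*, a tissue factor pathway inhibitor, rose by 1.54.

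Among ligands related to *Tnfsf15*, 3 of 8 rose, namely *Tnfsf11*, which encodes RANKL (1.12 to 23.6 CPM on average, log2 4.43, edgeR adjusted p = 0.00681), *Tnfsf8* (4.08, called in 10 of 19 alternatives) and the receptor *Tnfrsf12a* (1.82). Of the tenascins and their integrins 2 of 6 rose, *Tnc* from 14.9 and 22.5 CPM to 166 to 427 CPM (3.97) and *Itgb1* (0.77). Of the matrix genes induced by TGF-β 7 of 11 rose, led by *Cthrc1* (31.6 to 2762 CPM on average, 6.44), *Col12a1* (4.24) and *Lox* (3.01). The paper had already reported *Cthrc1*, *Postn*, *Lox* and several collagens as higher after injury in these data. The list was chosen with earlier results known, so its count and median are a description. A role of TGF-β was not tested. *Tnc* and *Cthrc1* also serve in the Adam12+ gate, whose cells are part of the fibroblasts compared. Of the CAP family 1 of 5 fell (*Crispld2*, -0.90, edgeR adjusted p = 0.0498, called in 9 of 19 alternatives), of the leucine-rich repeat genes *Lrrc17* rose (1.76) and *Lrrn4cl* fell (-1.67) among 6, and of the homeobox factors 1 of 10 rose and 4 fell, with *Dlx5* (-1.97), *Msx1* (-1.86) and *Meox2* (-1.45) the furthest. *Barx2* itself was chosen for its level after injury, and whether these genes fell in the cells that carried it was not read. The median log2 change was 2.33 for the TGF-β-induced list, from -0.91 to 0.22 for the other 8 lists, and 0.01 for all genes.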

How the data were processed

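The authors sorted cells from collagenase-digested knees, made droplet libraries and deposited a matrix of UMI counts per gene and cell for each of 9 libraries. Per the submitters' processing notes the counts came from Cell Ranger on GRCm38.p6, and headers of the newer files name version 3.0.2. The filters that the authors applied before deposit are not given in the sources used here. The members and lists were chosen with earlier results of these data known.

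The 4788 cells analysed had 500 genes or more, 1000 UMIs or more and a mitochondrial share up to 10%. Total UMIs per library ran from 2866464 to 15033902. Doublets were not removed, except in an alternative. Most gates asked for 3 to 5 distinct markers. The sublining gate asked for *Thy1* or *Cd34* alone, and the *Prg4*+ *Thy1*- gate for at least 5 *Prg4* UMIs without *Thy1*. Alternatives with 1 marker more or fewer left the sublining and *Prg4*+ *Thy1*- gates unchanged, but cells that passed or missed another gate could leave or enter these classes. Named genes were the 9 members, the 3 most similar genes of each and, per list of related genes, up to 3 called genes with the largest log2 change. UMIs were summed per library and class (at least 10 cells, or 5 for injury) and tested with edgeR 4.0.16 (R 4.3.3, limma 3.58.1) after TMM scaling and filterByExpr, at a false discovery rate of 0.05. The SE given for edgeR was computed from the log2 difference and its unadjusted p-value, so it is not independent of that p-value. Intervals of log2 differences are 1.96 SE on either side. This multiplier is that of a normal distribution, so with few libraries the intervals are narrower than 95% intervals should be. The script was tested on simulated data. Alternatives were DESeq2 1.42.0, its size factors, no filter, each library left out, a replicate block, gates of 1 marker more or fewer, other cell filters, the 5% of cells with the highest Scrublet scores removed (scanpy 1.11.5) and 1 gene list format. Depth tertiles and thinning used numpy 2.4.6 and Python 3.11.15. The result of the protease inhibitor list is not reported here.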

Additional observations from a re-analysis of the deposited data

Results flagged for a closer look

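Among 27 groups of 4 Tom+ injured libraries, 3 held a library that stood apart by Dixon's test. Its chance rate of about 1 in 20 groups does not hold for counts near 0, so the 3 flags are not set against it. *Cela1* in sublining cells was at 4.16 CPM in Tom+ injured replicate 3 and at 7.54 to 7.86 CPM in the other 3 libraries. *F2rl1* in FLS was at 1.75 CPM (4 UMIs) in Tom+ injured replicate 1 and at 0 to 0.294 CPM in the others. *Tnfsf15* in FLS was at 0.588 CPM (2 UMIs) in Tom+ injured replicate 2 and at 0 in the others.

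*Tnfsf15* moved in opposite directions between Adam12+ and sublining cells in the 2 lineages. The mean log2 difference was 0.66 in the Tom+ injured libraries, higher in 4 of 4, and -0.77 in the Tom-GFP+ injured libraries, lower in 2 of 2. This difference between lineages was not tested, and the Tom-GFP+ Adam12+ cells held 9 and 4 *Tnfsf15* UMIs.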

How the results depend on the processing

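Of the values of single genes under the alternatives, 950 kept direction and side of the threshold, 96 lost a call, 8 gained one and 31 changed sign, and of the counts 97 stayed within 1.5 times and 36 did not. The causes were not tested. The lineage comparison called 2 genes, 54 with DESeq2, 420 without a filter, 4 with 1 marker more per gate, 6 without the highest Scrublet scores and 1 to 23 when a library was left out. The injury comparison in Tom+ fibroblasts called 1655 genes, 2904 without a filter and 219 (without Tom+ steady-state replicate 1) to 1902 when a library was left out. Its related genes gave 26 calls, 42 with the older gene list format alone and 7 to 28 when a library was left out. Adam12+ against sublining cells gave 1339, 871 with 1 marker fewer, 422 with 1 marker more and 684 (without Tom-GFP+ injured replicate 1) to 1261 when a library was left out. Osteoblast-lineage against sublining cells gave 654, 285 with 1 marker more and 354 (without Tom+ injured replicate 2) to 641 when a library was left out. Mural against sublining cells gave 1990, 1010 with the newer format alone and 1010 (without Tom+ injured replicate 1) to 1965 when a library was left out. Injury in Tom+ osteoblast-lineage cells gave 82, 331 without a filter, 140 with 1 marker fewer, 2 with 1 marker more, 51 in cells of 1000 genes or more and under a mitochondrial limit of 5%, 192 with the older format and 164 to 398 when a library was left out.

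With a replicate block, 10 genes were called between lineages and 5 for injury in osteoblast-lineage cells, where *Tnn* was at 2.74, and the lineage differences of *Glipr1*, *Bdkrb1* and *F2rl1* were 0.16, 0.32 and 0.51. Deviations of same-numbered libraries correlated between -0.0596 and 0.317, at 0.317 and 0.122 for the injured Tom+ and Tom-GFP+ pairs, and which libraries share a mouse is not given in the sources used here.

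When a library was left out, lineage log2 differences ran from -1.62 to 0.26 for *Slpi*, -0.65 to 1.08 for *Glipr1*, -0.52 to 0.56 for *Bdkrb1*, -0.53 to 0.59 for *F2rl1*, -0.075 to 0.87 for *Lrrc15* and -0.76 to 0.14 for *Barx2*. Those of Adam12+ cells ran from -0.013 to 0.54 for *Tnfsf15* and -0.17 to 0.18 for *Cela1*, and with 1 marker more *Tnfsf15* was at -0.58 and *Barx2* at -0.057. In osteoblast-lineage cells they ran from -8.75 to 0.15 for *Glipr1*, -7.31 to 0.31 for *Bdkrb1* and -2.08 to 1.33 for *Tnfsf15*. The newer format alone gave 0.15 for *Glipr1* and 0.31 for *Bdkrb1*, 1 marker fewer 0.30 for *Bdkrb1* and 0.57 for *Cela1*, and 1 marker more -0.017 for *Slpi*. In mural cells *Cela1* ran from -1.02 to 0.38, with 0.0022 under DESeq2 size factors and 0.22 with 1 marker fewer. Injury in mural cells was not run, since too few steady-state cells met the gate. Few cells outside the fibroblast and FLS classes limit their values.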

Other observations

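Within injured fibroblasts, the members were also read in cells with cell cycle genes and in cells with *Pi16* or *Dpp4*, which are known from a universal adventitial fibroblast type. In 116 cycling fibroblasts of 4 libraries, *Barx2* was at 156 ± 75.5 CPM (SD, n = 4) against 67.2 ± 14.6 CPM in the other fibroblasts, *Glipr1* at 66.4 ± 21.1 against 31.1 ± 12.9 CPM and *F2rl1* at 35.6 ± 11.9 against 10.4 ± 5.15 CPM, each higher in 4 of 4 libraries. *Tnfsf15* was lower in cycling cells in 4 of 4 libraries, at 3.89 ± 5.93 against 9.37 ± 6.60 CPM. These cells held only 3, 5, 0 and 1 of its UMIs in the 4 libraries. Among the remaining members, *Tnn* was higher in cycling cells in 3 of 4 libraries, *Slpi*, *Bdkrb1* and *Lrrc15* in 2 and *Cela1* in 1. The share of Adam12+ cells among cycling and other fibroblasts was not compared. *Barx2*, *Glipr1* and *F2rl1* were among the 5 members called higher in Adam12+ than in sublining cells.

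In 620 *Pi16*+ or *Dpp4*+ fibroblasts of 6 libraries, *Tnn* was at 67.5 ± 59.2 CPM (SD, n = 6) against 172 ± 91.0 CPM in the other fibroblasts, and *Barx2* at 43.8 ± 33.3 against 81.1 ± 21.1 CPM. *Glipr1* was at 16.0 ± 7.15 against 37.0 ± 21.0 CPM and *Bdkrb1* at 5.87 ± 2.65 against 13.7 ± 5.73 CPM. The 4 genes were lower in 6 of 6 libraries. *Slpi*, *Tnfsf15* and *Lrrc15* were higher in *Pi16*+ or *Dpp4*+ cells in 1 of 6 libraries, and *F2rl1* and *Cela1* in 3 of 6. The share of Adam12+ cells was not compared in this split either. These values are descriptions and were not tested.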
